A study of Mus musculus with 6 samples.

Results

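Neurexins, neuroligins and cerebellins are proteins that join the sending and receiving sides of a synapse. The 9 genes described here are the neurexins Nrxn2 and Nrxn3, the neuroligins Nlgn1, Nlgn2 and Nlgn3, the cerebellins Cbln1, Cbln2 and Cbln4, and Lrrtm4, which encodes a leucine-rich repeat partner of neurexins. They were taken by symbol from the 54658 genes listed in each count table. Of the 9, 8 had counts and passed the expression filter, and Cbln1 was listed at 0 in all 6 libraries.

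The tissue was the nucleus accumbens, a ventral striatal region of the brain that takes part in reward, from male C57BL6 mice aged 8 weeks. In the Gas5 group a herpes simplex virus vector (p1005+) delivered Gas5, a long noncoding RNA, with EGFP, and in the control group, called GFP, the same kind of vector carried EGFP alone, so both groups were injected and both received EGFP. There were 3 libraries per group, A to C, of rRNA-depleted total RNA, and the series asks about Gas5 in the action of cocaine. The labels do not say which cells took up the vector, how long after injection the tissue was taken, or whether a sample holds 1 mouse or several. The p-values therefore reflect only how far these samples spread, which may in part be technical.

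Neurexins sit mainly on the presynaptic membrane and reach across the cleft to several kinds of partner. Neuroligins bind them directly from the postsynaptic side, where Nlgn1 is best known at excitatory synapses, Nlgn2 at inhibitory synapses and Nlgn3 at both. Cerebellins are secreted proteins of the C1q family, some of which bridge neurexins to delta-type glutamate receptors. In the forebrain Cbln2 and Cbln4 are made by distinct sets of neurons. Medium spiny neurons, the principal cells of the accumbens, receive excitatory input from cortex, thalamus, amygdala and hippocampus through synapses of this kind.

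Total counts ranged from 32359052 to 56081575 per library, and the 9 genes together held between 0.957% and 1.08% of them. Gas5 itself was 1.30-fold higher in the Gas5 libraries (adjusted p 0.0163), with 22.6, 23.3 and 23.6 CPM in Gas5 A to C against 18.6, 16.5 and 18.3 CPM in GFP A to C. CPM are counts scaled to library size with TMM (trimmed mean of M-values) factors. The Gas5 call was lost without GFP B (adjusted p 0.0727) and without GFP C (adjusted p 0.0677). It was also lost in the edgeR fit with the cortical marker covariate described below (adjusted p 0.998). The log2 difference of Gas5 was 0.37 (SE 0.182) in that fit, against 0.38 (SE 0.0633) in the main fit. Of 14 markers of medium spiny neurons, among them Drd1, Drd2, Adora2a and Penk, 0 were called, with 2 at an unadjusted p under 0.05. Their summed level lay between 5969 and 7482 CPM in the Gas5 libraries and between 6821 and 7672 CPM in the GFP libraries. Of 10 markers of cortical excitatory neurons 7 were lower and 0 higher, and their summed level lay between 188.7 and 245.7 CPM in the Gas5 libraries and between 407.1 and 543.8 CPM in the GFP libraries, with none of the 10 at 0. In bulk tissue, fewer cells of a type and less RNA per cell cannot be told apart.

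Counts were taken over the whole span of a gene, introns included, and reads in a stretch shared with another listed gene were left out. The whole 4205-base span of Cbln1 on chromosome 8 (GRCm38, 87468405 to 87472609, minus strand) lies inside 1 other listed gene, so its 0 says nothing about its expression. For Nlgn3 82.8% of the span is shared with 1 other gene and only 4.615 kb were counted. The span left out was at most 7.08% for the other 7 members. For Gas5 itself 26.6% of the span is shared with 10 other genes and 3.021 kb were counted.

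The cerebellins Cbln2 and Cbln4 moved in opposite directions, Cbln2 to a 3.85-fold lower and Cbln4 to a 2.10-fold higher level in the Gas5 libraries. Nrxn2 was 1.17-fold lower. Nrxn3, the 3 neuroligins and Lrrtm4 did not pass the test, and their log2 fold changes lay between -0.07 and 0.12. In all, 1 of the 8 tested members was higher and 2 were lower at an adjusted p under 0.05 (edgeR quasi-likelihood test, Benjamini-Hochberg over all genes), where 5.44% of the 17563 tested genes were called, 1.48% higher and 3.96% lower. The same 3 members had an unadjusted p under 0.05, as did 21.4% of all tested genes. The median log2 fold change was -0.02 over the tested members and 0.02 over all tested genes.

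The number of called members can be read against the share of all genes called in each other fit. It was 3 with RLE scaling (5.54% of genes), without the expression filter (5.79%), with DESeq2 (8.5%) and with the library letter as a block (8.19%). It was 2 with upper quartile scaling (5.14%), the filter of 1 CPM (6.35%), limma-voom (5.02%) and robust dispersion (5.36%). Leaving out 1 library gave 2 without Gas5 B (4.77%) and without GFP A (4.76%), and 1 when Gas5 A (3.46%), Gas5 C (4.37%), GFP C (0.599%) or GFP B (0.642%) was left out. Cbln2 was called in all of these fits.

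**Figure D1:**
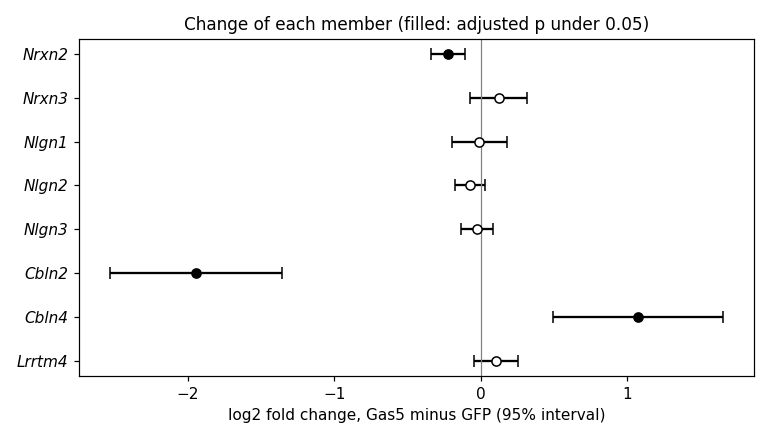
Log2 fold change, Gas5 minus GFP, for the 8 tested members, with the 95% interval of the edgeR fit as a horizontal bar; filled points had an adjusted p under 0.05. Cbln2 at -1.94 and Cbln4 at 1.07 lie far from the others, which stay between -0.23 and 0.12.

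Cbln2 encodes a secreted cerebellin that is produced in cortical and other projection neurons. It stood at 1.65, 2.29 and 3.77 CPM in Gas5 A, B and C, from 71, 98 and 146 counts. In GFP A, B and C it stood at 8.46, 9.36 and 11.8 CPM, from 470, 361 and 375 counts. All 3 Gas5 libraries lay below all 3 GFP libraries, with Gas5 C the closest to them. The groups were likewise apart for 27.7% of all tested genes. On the log2 scale the difference was -1.94 (SE 0.258, 95% interval -2.53 to -1.36, adjusted p 0.00924). Cbln2 spans 7174 bases on chromosome 18 (86711110 to 86718283, plus strand), shares none of them with another gene, and ranked 92 by p among all tested genes.

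The same libraries differed in markers of cortical excitatory neurons. Slc17a7, their vesicular glutamate transporter, stood at 5.75, 25.2 and 42.5 CPM in Gas5 A, B and C and at 153.1, 216.8 and 246.8 CPM in GFP A, B and C. Cbln2 and Slc17a7 thus had the same order over the 6 libraries, with Gas5 A lowest and GFP C highest. The 10 cortical markers summed had this order except that Gas5 B, at 245.7 CPM, lay above Gas5 C, at 241.9 CPM. Of the 10, 9 were negative by sign and 7 were called lower, while Cux2 and Lamp5 had log2 differences of -0.01 and 0.10. Slc17a6, the vesicular glutamate transporter of thalamic and other subcortical neurons, was also lower, at 3.64, 3.06 and 3.17 CPM against 7.58, 10.1 and 11.3 CPM, with an adjusted p of 0.00473. It was singled out after its value was seen, and the list of septal, hypothalamic and thalamic markers it comes from did not move one way. The median log2 difference of that list was 0.23, and Tcf7l2, its most counted gene, was at 0.02 (adjusted p 0.929). Once the mean log2 CPM of the 10 cortical markers entered the model as a covariate, the log2 difference of Cbln2 was -0.40 (SE 0.461, adjusted p 0.998). That fit called 0 genes of 17563, with 424 at an unadjusted p under 0.05. The covariate lay between 2.19 and 3.04 in the Gas5 libraries and between 3.97 and 4.49 in the GFP libraries. Since it separates the groups fully, the fit can hardly tell cortical content from group.

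Cbln4 encodes another secreted cerebellin, known from inhibitory as well as excitatory neurons. It stood at 9.49, 6.45 and 5.68 CPM in Gas5 A, B and C, from 409, 276 and 220 counts, and at 4.41, 3.40 and 2.27 CPM in GFP A, B and C, from 245, 131 and 72 counts. Gas5 A was the highest library and GFP C the lowest, the reverse of their places for Cbln2, and the groups did not overlap, as for 27.7% of all tested genes. On the log2 scale the difference was 1.07 (SE 0.254, 95% interval 0.49 to 1.65, adjusted p 0.0482). The gene lies on chromosome 2 (172036233 to 172043466, minus strand), spans 7234 bases and shares none.

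The call of Cbln4 rested close to the threshold. Leaving out a library ended it in 5 of 6 cases: the adjusted p was 0.0964 without Gas5 A, 0.0596 without Gas5 B, 0.0522 without Gas5 C, 0.168 without GFP B and 0.149 without GFP C, with log2 fold changes between 0.81 and 1.21 in these 5 fits. It was 0.0377 without GFP A. Limma-voom gave 0.0602, robust dispersion 0.0708 and the filter of 1 CPM 0.0509. In the fit with the cortical covariate it turned to -0.47 (SE 0.373, adjusted p 0.998). Over the 6 libraries the order of Cbln4 was the exact reverse of that of Slc17a7. Among the 10 markers of septal, hypothalamic and thalamic neurons 2 were lower, Slc17a6 and Trpc4, and 0 higher. By sign 4 were negative and 6 positive, and 6 had an unadjusted p under 0.05. Their summed level lay between 88.3 and 118.3 CPM in the Gas5 libraries and between 103.8 and 111.5 CPM in the GFP libraries, and no marker of the list was at 0. The positive markers of smallest p, Irs4, Lhx8 and Prlr, had log2 differences of 1.44, 0.75 and 1.83 and adjusted p of 0.0940, 0.106 and 0.132. Of the negative ones, Slc17a6 had -1.54, Trpc4 -0.38 and Zic1 -0.37. The part of other cell populations in the Cbln4 difference was not tested beyond these values.

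The 250 bases upstream of Cbln4, a called member, are shown as given in the RefSeq promoter table used here. Nrxn3, Nlgn1, Nlgn2 and Lrrtm4 are among the other members with entries there, and their upstream sequences are not shown. The stretch is chr2:172043467-172043716 of GRCm38.p6, on the minus strand, printed 5′ to 3′ and ending at the base before the transcription start. Capitals mark every match to 6 short motifs searched on both strands: the TATA box (TATAAA), the E-box (CANNTG), the cyclic AMP response element (TGACGTCA), the AP-1 site (TGACTCA), the GC box (GGGCGG) and the CAAT box (CCAAT).
Cbln4 upstream: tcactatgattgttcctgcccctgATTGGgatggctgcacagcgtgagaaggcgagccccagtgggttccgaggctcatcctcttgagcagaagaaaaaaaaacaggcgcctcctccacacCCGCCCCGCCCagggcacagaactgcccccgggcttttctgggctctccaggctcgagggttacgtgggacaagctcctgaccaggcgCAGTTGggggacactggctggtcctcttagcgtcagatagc

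The window held 1 E-box, 36 to 41 bases before the start, 2 GC boxes that share 1 base, between 119 and 129 bases before it, and 1 CAAT box, 222 to 226 bases before it. Neither a TATA box, a cyclic AMP response element nor an AP-1 site matched. Among all 32851 upstream windows of this length in the table, 66.2% held the E-box, 32.7% the GC box, 33.8% the CAAT box, 12.4% the TATA box, 4.46% the AP-1 site and 1.55% the cyclic AMP response element. Its base composition was 60.8% G and C, against a median of 52.4% over all windows. A match is a description of letters and shows no binding.

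Because Cbln2 and Cbln4 have nearly the same span and exon content, with 2894 and 2902 annotated exon bases, their counts can be set against each other within a library. Cbln2 made up 14.8% of the summed Cbln2 and Cbln4 counts in Gas5 A (95% exact Clopper-Pearson interval 11.7% to 18.3%), 26.2% in Gas5 B (21.8% to 31.0%) and 39.9% in Gas5 C (34.8% to 45.1%). Its share was 65.7% in GFP A (62.1% to 69.2%), 73.4% in GFP B (69.2% to 77.2%) and 83.9% in GFP C (80.2% to 87.2%). Cbln4 was thus the more counted of the pair in every Gas5 library and Cbln2 in every GFP library. The mean share was 27.0% ± 12.6 (SD, n = 3) against 74.3% ± 9.12 (SD, n = 3), and the libraries of each group differed by more than their intervals, which cover counting error only. The summed level of both genes was 9.77 CPM ± 1.23 in the Gas5 group and 13.2 CPM ± 0.727 in the GFP group (SD, n = 3 each). Per kb of span, Cbln2 went from 1.38 CPM in the GFP group to 0.358 CPM in the Gas5 group, and Cbln4 from 0.464 to 0.996 CPM.

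**Figure D2:**
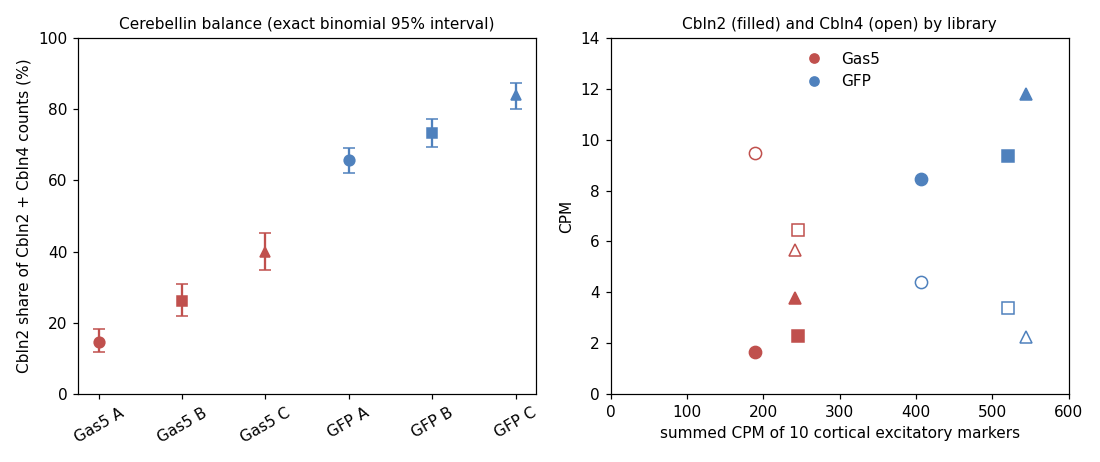
Left, the share of Cbln2 in the summed Cbln2 and Cbln4 counts of each library (percent, bars are exact binomial 95% intervals); right, CPM of Cbln2 (filled) and Cbln4 (open) against the summed CPM of 10 cortical excitatory markers, 1 pair of points per library, red for Gas5 and blue for GFP, with circle, square and triangle for libraries A, B and C. The share is at most 39.9% in the Gas5 libraries and at least 65.7% in the GFP libraries, and the Gas5 libraries lie at 188.7 to 245.7 CPM of the markers.

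Nrxn2, a neurexin gene, differed little but with little spread. It stood at 31.3, 34.1 and 31.7 CPM in Gas5 A, B and C and at 38.1, 37.5 and 37.8 CPM in GFP A, B and C. The 3 GFP libraries were nearly level and all lay above the 3 Gas5 libraries, a lack of overlap shared by 27.7% of all tested genes. On the log2 scale the difference was -0.23 (SE 0.0499, 95% interval -0.34 to -0.11, adjusted p 0.040). Nrxn2 lies on chromosome 19 (6418731 to 6544169, plus strand), and exons make up 11% of its 125.4 kb. The call was lost under upper quartile scaling (adjusted p 0.0586), in the covariate fit (log2 difference -0.16, adjusted p 0.998), and without any one of Gas5 A, Gas5 C, GFP A, GFP B or GFP C (adjusted p between 0.0815 and 0.141). It held without Gas5 B, at 0.0307. Beside this difference, the 10 oligodendrocyte markers had a median log2 difference of -0.26, all of them negative and 1 called, and their part in it was not tested.

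Nrxn3, the other neurexin, was the most counted member, at 5707, 5629 and 6131 CPM in Gas5 A to C. GFP A to C stood at 5727, 5245 and 5094 CPM. The groups overlapped, since GFP A exceeded Gas5 A and Gas5 B. Its log2 fold change of 0.12 had a 95% interval of -0.07 to 0.31 and an adjusted p of 0.460, so these data leave room for a change of up to 1.24-fold. Exons make up 0.782% of its 1612 kb on chromosome 12 (88722876 to 90334935, plus strand), and exonic and intronic reads are not separated in its count. Nrxn3 had 182.5, 165.3 and 193.3 times the counts of Nrxn2 in Gas5 A to C and 150.3, 140 and 134.6 times in GFP A to C, again without overlap.

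None of the 3 neuroligins passed the test, and their summed level was 3090 CPM ± 236.5 in the Gas5 group and 3123 CPM ± 105.6 in the GFP group (SD, n = 3 each). Nlgn1 stood at 2654, 3115 and 2791 CPM in Gas5 A, B and C and at 2764, 2993 and 2873 CPM in GFP A, B and C. Gas5 A was the lowest and Gas5 B the highest of the 6, so the Gas5 libraries enclosed the GFP libraries. The log2 fold change of Nlgn1 was -0.01 with a 95% interval of -0.20 to 0.18 and an adjusted p of 0.955, and its sign turned under 4 of 15 alternatives. Nlgn2, the neuroligin of inhibitory synapses, stood at 185.6, 187.6 and 185.1 CPM in Gas5 A to C and at 202.7, 188.3 and 196.7 CPM in GFP A to C. The Gas5 libraries all lay below the GFP libraries, Gas5 B and GFP B by less than 1 CPM. Such a lack of overlap was seen for 27.7% of all tested genes. The log2 fold change of Nlgn2 was -0.07, with a 95% interval of -0.18 to 0.03 and an adjusted p of 0.399. Nlgn3, counted on the unshared part of its span only, stood between 48.8 and 52.2 CPM in the Gas5 libraries and between 49.9 and 53.1 CPM in the GFP libraries. The groups overlapped almost fully, and its log2 fold change was -0.03 with a 95% interval of -0.14 to 0.08 and an adjusted p of 0.791.

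Lrrtm4, a postsynaptic protein that binds neurexins and heparan sulfate proteoglycans, stood at 1591, 1714 and 1535 CPM in Gas5 A, B and C and at 1487, 1536 and 1487 CPM in GFP A, B and C. The groups met at Gas5 C and GFP B. The log2 fold change was 0.10, with a 95% interval of -0.05 to 0.25 and an adjusted p of 0.418. Nrxn3, Nlgn1 and Lrrtm4 each span more than 500 kb, a class of 236 tested genes of which 17.8% were called. None of these 3 members was called, and edgeR gave each an unadjusted p above 0.05, as did DESeq2 and limma-voom.

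**Figure D3:**
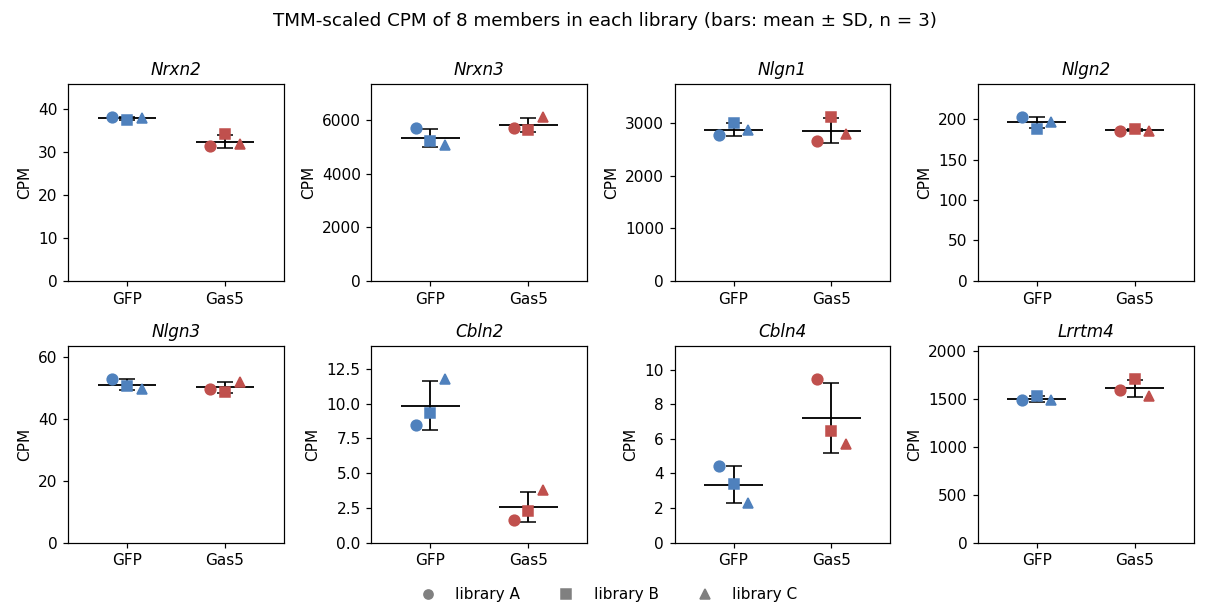
TMM-scaled CPM of the 8 members with counts, in GFP (blue) and Gas5 (red) libraries, with circle, square and triangle for libraries A, B and C; black bars are the mean ± SD of 3 libraries and each vertical axis starts at 0. Cbln2 and Cbln4 separate clearly in opposite directions, Nrxn2 by a narrow margin, and the other 5 stay level or overlap.

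Levels of different members are comparable only per length. Over all 6 libraries Nlgn2 was the highest at 13.0 CPM ± 0.483 (SD) per kb of counted span and Nlgn3 followed at 11 CPM ± 0.347. Nrxn3 at 3.49 CPM ± 0.232 and Nlgn1 at 3.19 CPM ± 0.185 per kb were separated by less than the sum of their SDs. Lrrtm4 came next at 2.03 CPM ± 0.112. The cerebellins have no single place in this order, since the groups run in opposite directions. In the GFP group Cbln2 stood at 1.38 CPM per kb, Cbln4 at 0.464 and Nrxn2 at 0.324. In the Gas5 group Cbln4 stood at 0.996 CPM per kb, Cbln2 at 0.358 and Nrxn2 at 0.278, and in Gas5 A Cbln2 lay below Nrxn2. These values mix exons and introns, and exons make up 39.5% of the span of Nlgn2 but 1.48% of that of Nlgn1. The order is therefore one of counted RNA along the span and not of mature transcripts. The place of Nlgn3 rests on the 4.615 kb counted. With the whole listed span as length, 81.8% of tested genes had fewer CPM per kb than Nlgn3. That share was 82.7% for Lrrtm4, 90.7% for Nlgn1 and 91.7% for Nrxn3.

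The partners of these proteins were taken from a list of 77 genes of the same adhesion system, of which 64 were tested. The list and its parts were drawn up with earlier results of these data known, so their counts are descriptions only. Of the 64, 1 was higher and 16 were lower, with a median log2 fold change of -0.12. Over all tested genes 1.48% were higher and 3.96% lower, with a median of 0.02. Without GFP B or without GFP C 4 of the partners were called, all lower. In the covariate fit 0 partners were called, with 4 at an unadjusted p under 0.05. Among the partners called by edgeR, Nxph3, Fam19a1, Ntng1 and Ntng2 alone kept their calls both without GFP B and without GFP C. The cortical markers were lower in the same libraries. That fit can hardly tell their part in these differences from the group, and it was not tested otherwise. Another 9 listed genes, among them Lrrtm1, Lrrtm2 and Lrrtm3, were at 0 in every library because their whole span is shared with another gene. Cbln3, the remaining cerebellin gene, had between 1 and 6 counts per library and was not tested.

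Of the 16 decreases 8 were among neurexin ligands and related adhesion partners, a list that also holds Gpc4. There 8 of 15 tested genes were lower and 0 higher, against 3.96% and 1.48% of all tested genes. The median log2 fold change of this list was -0.24. Neurexophilins, small secreted glycoproteins that bind neurexins tightly, accounted for 3 of the 8. Nxph3 stood at 0.974, 1.78 and 2.37 CPM in Gas5 A, B and C and at 6.50, 10.5 and 10.6 CPM in GFP A, B and C. It was 5.39-fold lower in the Gas5 group (log2 difference -2.43, SE 0.298, adjusted p 0.00717), and -0.19 on the log2 scale in the covariate fit. Nxph4 was 4.19-fold lower, at 0.748 CPM ± 0.297 against 3.15 CPM ± 0.782 (SD, n = 3 each), and Nxph2 was 1.55-fold lower, with adjusted p of 0.0115 and 0.0394. Nxph2 was also lost without Gas5 A (0.0876), Gas5 B (0.0748) or GFP A (0.0965). Nxph1, the most counted neurexophilin gene, missed the threshold at a log2 difference of -0.22 (adjusted p 0.0550).

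Fam19a1 encodes a secreted chemokine-like protein of a family that binds neurexins. It stood at 41.2, 26.4 and 33.0 CPM in Gas5 A, B and C and at 118.8, 146.6 and 158.4 CPM in GFP A, B and C, a 4.21-fold decrease with an adjusted p of 0.00352. Every Gas5 library lay far below every GFP library. Its log2 difference was -2.32 (SE 0.453) in the covariate fit, against -2.07 (SE 0.161) without the covariate, and its adjusted p was then 0.998. Its relative Fam19a2 was 1.39-fold lower (adjusted p 0.0264), and its log2 difference turned to 0.11 in the covariate fit. Of the calsyntenins, cadherin-like proteins of the postsynaptic membrane, Clstn2 was 1.54-fold lower and Clstn3 1.18-fold lower, with adjusted p of 0.0144 and 0.0249. In the covariate fit their log2 differences were 0.057 and -0.10. Gpc4, a glypican that can serve as a presynaptic partner of Lrrtm4, was 1.48-fold lower (adjusted p 0.0403). That call held in 7 of 15 alternatives. Besides the fits without GFP B or GFP C and with the covariate, it was lost without Gas5 A (0.0507), Gas5 B (0.0647) or Gas5 C (0.0895), with limma-voom (0.0518) and with the library letter as a block (0.0522). Lrrtm4 itself did not pass the test.

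Grid1, which encodes a delta-type glutamate receptor to which some cerebellins bind, did not pass the test. It stood at 1011 CPM ± 36.5 in the Gas5 group and 976 CPM ± 17.6 in the GFP group (SD, n = 3 each), a log2 difference of 0.05 with a 95% interval of -0.08 to 0.18 and an adjusted p of 0.656. C1ql3, a secreted C1q-like protein related to the cerebellins, stood at 1.41 CPM ± 0.504 against 2.67 CPM ± 0.547, with an adjusted p of 0.0962. It passed without the expression filter (0.0217), with DESeq2 (0.0237) and with the library letter as a block (0.0244), and 61.8% of its span is shared and not counted.

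On the inner side of the synapse, adaptor and scaffold proteins bind the tails of neurexins and neuroligins. Over all tested genes edgeR called 1.48% higher and 3.96% lower, and 21.4% had an unadjusted p under 0.05. Of 6 tested proteins that bind the neurexin tail or act with it, 2 were lower and 0 higher. These were Apba1 and Apba2, which encode the Mint adaptors, 1.23-fold and 1.26-fold lower with adjusted p of 0.0237 and 0.0211. Of 9 neuroligin partners, among them Gphn, the gephyrin scaffold of inhibitory synapses, Dlg4 and the Mdga genes, 0 were called by edgeR, with 1 at an unadjusted p under 0.05. The members of smallest p were Dlg3, a scaffold gene, at a log2 difference of -0.11 (adjusted p 0.170), and Mdga1, which encodes an inhibitor of neurexin binding, with -0.21 and 0.298. Whether the neurexin and neuroligin partners differ from each other was not tested.

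Of 3 tested genes for STAR-family RNA-binding proteins, which include regulators of neurexin splicing, Khdrbs3 was 1.86-fold lower, at 93.8 CPM ± 13.7 against 174.5 CPM ± 32.0 (SD, n = 3 each), with an adjusted p of 0.0153. Khdrbs2 stood 0.41 higher on the log2 scale, with an adjusted p of 0.120. The count tables hold 1 value per gene, so the splice forms of the neurexins were not analysed here.

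Other families of synaptic organisers had 1 of 26 tested members higher and 5 lower, with a median log2 fold change of -0.14. Of all tested genes 1.48% were higher and 3.96% lower. The netrin-G genes, which encode presynaptic membrane-anchored proteins, were both lower, Ntng2 by 2.96-fold and Ntng1 by 1.65-fold, with adjusted p of 0.00642 and 0.00473. Ptprd, a receptor phosphatase that organises presynaptic sites, was 1.63-fold lower (adjusted p 0.0137), with a mean of 1517 CPM ± 135 in the Gas5 group and 2472 CPM ± 329 in the GFP group (SD, n = 3 each). Elfn1 and Cadm4 were 1.26-fold and 1.19-fold lower, with adjusted p of 0.0293 and 0.0427. Elfn1 was also lost without Gas5 C (0.0653) or GFP A (0.0563), and Cadm4 without Gas5 A (0.0905), Gas5 C (0.0855) or GFP A (0.0764). Cadm1, a homophilic adhesion gene, was the only one higher, at 930.6 CPM ± 145 against 687 CPM ± 25.4, with an adjusted p of 0.0469. It was also lost without GFP A (0.0879), and turned to a log2 difference of -0.18 in the covariate fit.

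**Figure D4:**
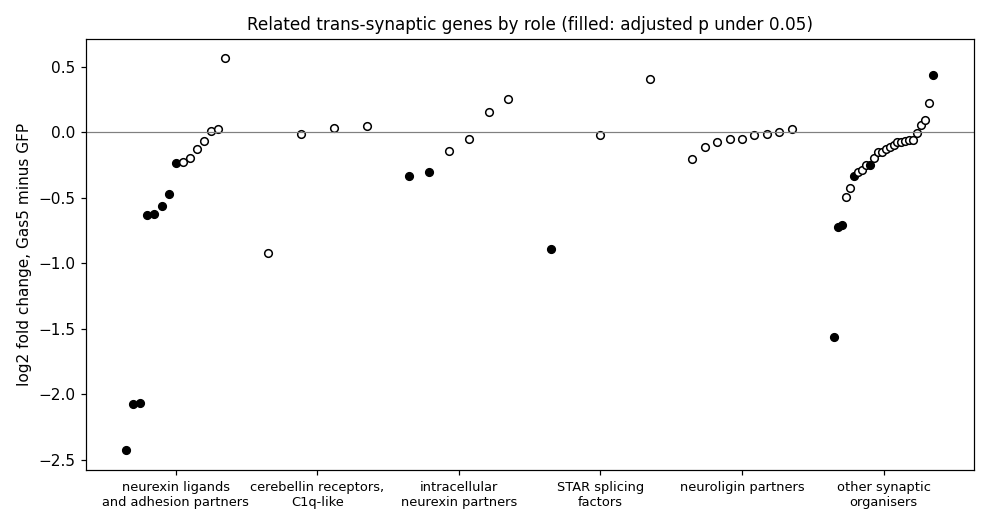
Log2 fold change, Gas5 minus GFP, of the tested partner genes grouped by role, each point 1 gene, sorted within its group; filled points had an adjusted p under 0.05. The neurexin ligands and adhesion partners reach down to -2.43, whereas the neuroligin partners lie between -0.21 and 0.02 with none called.

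The genes most like each called member over the 6 libraries were found by Pearson's r of log2 CPM among 12305 genes, as a description only, since the libraries fall into 2 groups that the correlation follows. For Cbln2 these were Rasal2 (r = 0.9995) and Kcnv1, a potassium channel subunit gene (r = 0.9986), which were 1.47-fold and 1.52-fold lower, much less than Cbln2. For Cbln4 they were Galnt16 (r = 0.9985) and Itm2c (r = 0.9962), with log2 fold changes of 0.38 and 0.22. For Nrxn2 they were Syp, which encodes the synaptic vesicle protein synaptophysin (r = 0.9949), and Map1lc3a, an autophagy gene (r = 0.9921), 1.24-fold and 1.26-fold lower.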

How the data were processed

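The deposited files hold raw counts per gene for 6 libraries, per the file headers. Named by the submitters' processing notes are the build GRCm38.p6, the counter featureCounts 1.5.0-p3, the aligner STAR 2.7.0, Trim Galore 0.4.4, edgeR 3.20.9 and bcl2fastq 1.8.4. The sources used here give neither annotation release nor strand setting. The coordinates of all 9 members match GENCODE M21.

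The main test was that of edgeR 4.0.16 under R 4.3.3 (default expression filter, TMM, quasi-likelihood F-test, 2-sided, Benjamini-Hochberg over 17563 genes, threshold 0.05), which was tested on simulated data. Standard errors are the absolute log2 fold change over the square root of F. Log2 CPM used a pseudocount of 0.5. Alternatives used limma 3.58.1 and DESeq2 1.42.0 among others. Libraries of a group differed by a chi-square per degree of freedom of 4.82 to 23.3, more than sampling noise, so each counted once.

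Members and lists were chosen with earlier results of these data known. Genes named are the members, Gas5, called partners (or the 2 of smallest p where a role had none) and the 2 genes most like each called member, among genes averaging at least 1 in log2 CPM, placeholder symbols left out. Nxph1, Khdrbs2, Cbln3, Lrrtm1 to Lrrtm3, Slc17a6, Slc17a7, Tcf7l2, Trpc4, Irs4, Lhx8, Prlr and Zic1 were named after their values were seen. Some genes of these families are not reported here. Of the other marker lists, edgeR called 1 of 10 interneuron markers lower (5 at an unadjusted p under 0.05), 1 of 10 oligodendrocyte markers lower (7), 1 of 9 astrocyte markers higher (4), 1 of 6 endothelial markers lower (2), 0 of 8 microglia markers (5) and 0 of 4 oligodendrocyte precursor markers (1). All 10 oligodendrocyte markers were negative, with a median log2 difference of -0.26 and summed levels of 1737 to 2199 CPM in the Gas5 group against 2238 to 2431 CPM, and all 8 microglia markers were positive, with a median of 0.26 and 280.6 to 305.1 against 244.1 to 272.8 CPM. The part of these shifts in the members' differences was not tested. Gfap, P2ry12 and Gpr17 were at 0, with their whole span shared.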

Additional observations from a re-analysis of the deposited data

How the results depend on the processing

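Against 3 members called, 0 were called with cortical markers as covariate and between 1 and 2 when 1 library was left out. Cbln2 kept its direction and call in 14 of 15 alternatives, all but the covariate. Cbln4 kept its call in 6 of 15 and Nrxn2 in 8 of 15. The 17 partner genes called became 0 with the covariate and between 4 and 18 when 1 library was left out. Over all genes 955 were called, against 1492 with DESeq2, 1658 with no expression filter, 1438 under the replicate block, 0 with the covariate, and between 107 and 847 when 1 library was left out, lowest without GFP B (115) and GFP C (107), and 612 without Gas5 A. Under upper quartile scaling 317 genes were higher and 586 lower, against 260 and 695.

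Signs turned for Nlgn1 under upper quartile scaling (0.013), with the covariate (0.25), and on leaving out Gas5 A (0.032) or GFP B (0.017), with a range of -0.080 to 0.032 when 1 library was left out. Nlgn3 turned without GFP A (0.00084), with a range of -0.063 to 0.00084. With the covariate they turned for Cbln4 (-0.47), Nxph4 (0.0054), Clstn2 (0.057), Fam19a2 (0.11), Khdrbs3 (0.093) and Cadm1 (-0.18). Why was not tested.

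The letters A, B and C are not said to pair samples, and same-letter deviations correlated at 0.164, 0.179 and -0.0936, so the letter was not taken as a pairing. With it as a block, 3 members and 20 partner genes were called. Cbln2, at 71 to 470 counts, and Cbln4, at 72 to 409, are the thinnest members, and 3 libraries a group limit all of them.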
